A study of Mus musculus with 18 samples.

Results

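The genes described here are 10 feedback and output genes of the ERK pathway, *Dusp4*, *Dusp5*, *Dusp6*, *Spry1*, *Spry2*, *Spry4*, *Spred1*, *Etv4*, *Etv5* and *Phlda1*. They were taken by symbol from the 28442 genes of the deposited expression table, and each symbol matched 1 gene. The rule names the genes and uses no measured value, but they were chosen with earlier results of these data known. Of the 10 genes, 8 passed the filter on low values and were tested between tumors and livers, whereas *Dusp5* and *Etv4* did not pass it.

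RNA-seq of poly-A RNA was available for 6 non-tumoral livers and 12 advanced tumors of *Alb-R26Met* mice. All 18 samples came from males of an F1 cross between the C57BL/6JRj and 129S2/SvPasOrlRj strains that carried Cre under the *Alb* promoter, which is active in hepatocytes, and a conditional mouse-human chimeric *Met* transgene in the *Rosa26* locus. The livers therefore carried the same transgene and Cre as the tumors, and came from 6 mice in which no tumor had formed. Liver donors were 52 to 71 weeks old (median 56.5), and the 11 mice with tumors were 49 to 72 weeks old (median over tumors 65). Tumors 11 and 12 shared a mouse. The sample names carry a tag whose meaning is not given in the sources used here, with 7 tumors and 2 livers under E19, and 5 tumors and 4 livers under E20. No sample without the transgene was part of these data, so a tumor-liver difference is a difference between 2 tissues that both carry it.

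MET is a receptor tyrosine kinase that, once bound by HGF, passes its signal through RAS, RAF and MEK to the kinase ERK. Active ERK induces genes that in turn restrain the cascade. Dual-specificity phosphatases take the phosphates off ERK, Sprouty and Spred proteins act upstream on RAS and RAF, and the ETS transcription factors ETV4 and ETV5 carry the signal on to further genes. Levels of these transcripts are often read as a record of ERK activity, although each also has other regulators. The activity of ERK itself was not measured here.

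The genes differ in the sequence just ahead of their start, and 3 of these sequences are shown, those of *Dusp6* and *Spred1*, which were called higher in tumors, and that of *Dusp5*, which was listed at 0 in every sample. Each sequence holds the 250 bases before the annotated start on the strand of the gene, from RefSeq on GRCm38.p6, at chr10:99262981-99263230 for *Dusp6* (plus strand), chr2:117120821-117121070 for *Spred1* (plus strand) and chr19:53528895-53529144 for *Dusp5* (plus strand). Capitals mark a motif match.
Dusp6: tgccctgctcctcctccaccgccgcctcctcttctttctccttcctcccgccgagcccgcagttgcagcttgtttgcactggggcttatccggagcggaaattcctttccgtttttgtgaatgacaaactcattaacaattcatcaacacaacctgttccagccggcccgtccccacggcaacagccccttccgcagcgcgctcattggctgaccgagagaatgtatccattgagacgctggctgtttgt
Spred1: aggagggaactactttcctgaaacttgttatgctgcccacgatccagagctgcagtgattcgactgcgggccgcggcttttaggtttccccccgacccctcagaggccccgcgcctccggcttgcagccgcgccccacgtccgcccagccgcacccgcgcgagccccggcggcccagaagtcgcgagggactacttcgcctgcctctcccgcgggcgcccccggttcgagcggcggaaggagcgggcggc
Dusp5: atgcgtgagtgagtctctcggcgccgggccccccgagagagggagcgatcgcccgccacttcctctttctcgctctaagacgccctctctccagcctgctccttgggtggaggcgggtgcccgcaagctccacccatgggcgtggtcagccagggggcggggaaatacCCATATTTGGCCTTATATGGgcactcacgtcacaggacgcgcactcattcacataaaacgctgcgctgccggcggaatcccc
A window was found for 6 of the 10 genes, with none for *Dusp4*, *Spry4*, *Etv4* and *Phlda1*. Windows were searched on both strands for an ETS site (CCGGAAGT), an AP-1 site (TGAGTCA), a cyclic AMP response element (TGACGTCA) and the CArG box bound by serum response factor. *Dusp5* held 2 CArG boxes side by side, which span bases 82 to 73 and 72 to 63 before the start. A CArG box stood in 1.47% of 32851 such windows. The windows of *Dusp6*, *Spry1*, *Spry2*, *Spred1* and *Etv5* (2 starts) matched none of the 4 motifs, which were present in 2.88% (ETS), 4.46% (AP-1) and 1.55% (cyclic AMP response element) of all windows. A match is a description of letters, not a bound site. A missing match speaks only of these 250 bases and of the exact letters searched, so variants of these sites were not looked for.

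The deposited values are TPM (a share of all transcripts that corrects for their length) rounded to whole numbers, and they were scaled between samples before any comparison. Tumor 2 stood apart. The single gene *Siglece* held 82.9% of its total, where the other tumors had 21.5% to 53.4% and livers 17.9% to 29.5%, and 8718 genes were above 0 in it, fewer than the 11508 to 13819 of any other tumor. After scaling, 1 deposited unit stood for 5.25 scaled TPM in tumor 2 and for 0.708 to 1.31 in all other samples. Of the 10 genes, 6 were at 0 in tumor 2, which there stands for any level that rounds to 0 in units of this size. Each main count is therefore also given without it, a choice made after seeing the data. Hepatocyte markers were present in both tissues, with summed levels of *Alb*, *Apoa1*, *Ttr*, *Hnf4a* and *Cyp2e1* of 34039 to 44953 scaled TPM in livers and 35254 to 69196 in tumors. The sum hides opposite changes. *Apoa1* was called higher in tumors (log2 fold change 0.94, limma, adjusted p = 0.00919) and *Cyp2e1* lower (-2.79, adjusted p = 0.00192, mean 1987 in livers and 469 in tumors).

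Between tumors and livers, *Dusp6*, *Dusp4* and *Spred1* were higher in tumors and *Phlda1* was lower (limma on log2 values, Benjamini-Hochberg adjusted p under 0.05 over all genes tested). *Spry1*, *Spry2*, *Spry4* and *Etv5* did not pass the threshold. Thus 3 of the 8 genes tested were called higher and 1 lower, where over all 11452 genes tested 10.3% were called higher and 8.73% lower. The median log2 fold change of the 8 genes was 0.51, against -0.04 over all genes tested. Without tumor 2, 4 of the 8 genes were called higher and 1 lower, against 15.1% and 11.8% of all genes. In bulk tissue, a smaller share of cells that express a gene cannot be told apart from less RNA of that gene per cell.

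**Figure D1:**
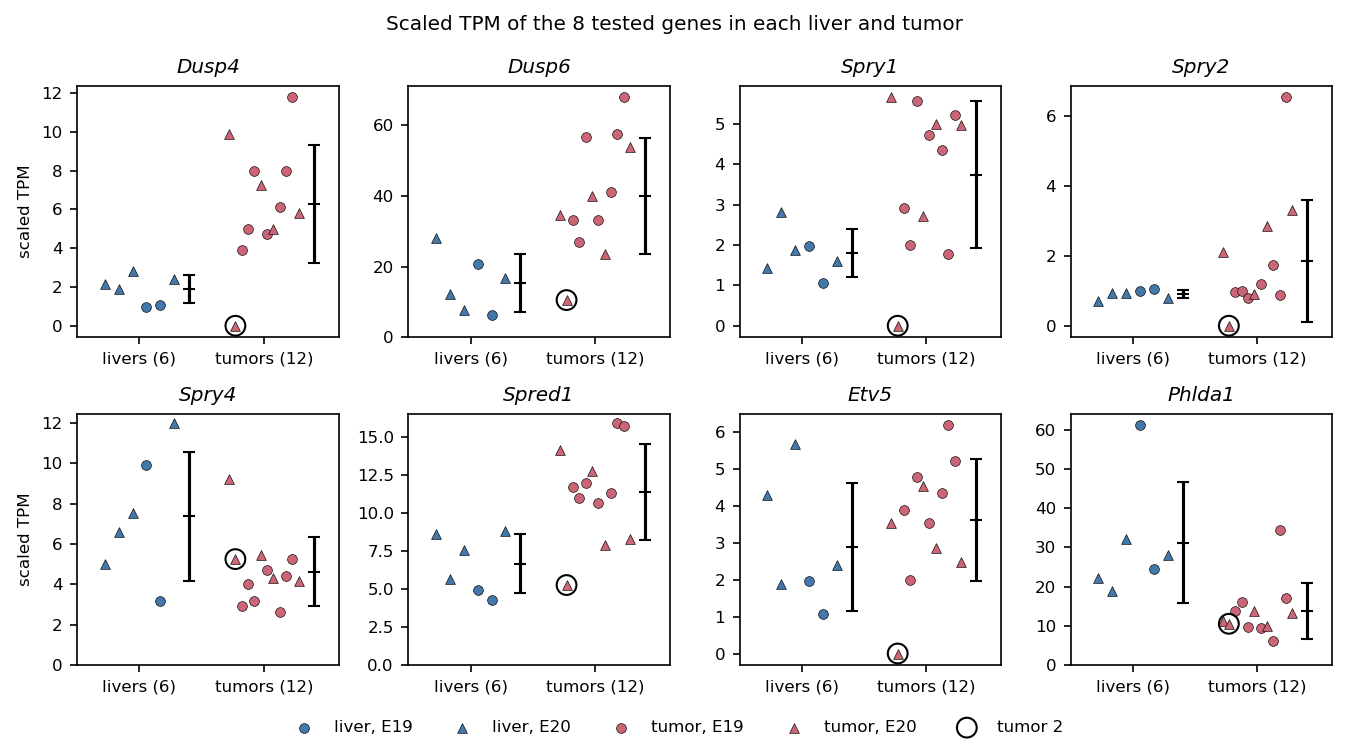
Scaled TPM of the 8 tested genes in each of 6 livers (blue) and 12 tumors (red), with circles for E19 and triangles for E20, a black ring around tumor 2, and bars for mean ± SD. *Dusp4* lay above every liver in 11 of 12 tumors and *Phlda1* below every liver in 11 of 12, while *Dusp6* and *Spred1* overlapped with livers in 3 tumors.

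*Dusp6*, the cytoplasmic phosphatase of ERK, lies on chromosome 10 from 99263231 to 99267489 and was the most abundant of the 10 genes in tumors. Its level ran from 6.39 to 27.96 scaled TPM in livers (median 14.5) and from 10.5 to 68.01 in tumors (median 37.4). The groups overlapped, since 9 of 12 tumors lay above every liver and tumors 2, 4 and 8 lay within the liver range. Tumors averaged 39.9 ± 16.5 (SD, n = 12), livers 15.3 ± 8.26 (SD, n = 6). The log2 fold change was 1.36 ± 0.33 (SE, limma, adjusted p = 0.00605), and an exact permutation test over all 18564 ways of drawing 12 of the 18 samples gave p = 0.00215 (two-sided). The lowest tumor was tumor 2, at 2 deposited units, and without it the log2 fold change was 1.51 (limma, adjusted p = 0.000527). Without scaling between samples, where the median log2 fold change of all genes was -0.18, that of *Dusp6* was 1.18 and the call was lost (limma, adjusted p = 0.147). Over all alternatives the adjusted p ran from 7.44e-05 to 0.321.

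*Dusp4*, a nuclear phosphatase of ERK on chromosome 8 (34807610 to 34819894), was at a lower level with a clearer gap between the groups. It ran from 0.989 to 2.83 scaled TPM in livers (median 2.02). Among tumors it was at 0 in tumor 2 and from 3.91 to 11.8 in the other 11 (median over all 12, 5.95). Every tumor except tumor 2 thus lay above every liver, a pattern found in 3.73% of all genes tested. Tumors averaged 6.29 ± 3.03 (SD, n = 12), livers 1.89 ± 0.736 (SD, n = 6), and the log2 fold change was 1.19 ± 0.37 (SE, limma, adjusted p = 0.0266), with an exact permutation p of 0.00959. Livers held only 1 to 3 deposited units, so that rounding alone could move the log2 fold change between 0.87 and 1.70. The call was lost without liver 2 (limma, adjusted p = 0.0509), liver 4 (0.0715) or liver 5 (0.0629) and with a pseudocount of 0.5 (0.0546), and it was firmer without tumor 2 (log2 fold change 1.43, adjusted p = 3.84e-05). Over all alternatives the adjusted p of *Dusp4* ran from 3.84e-05 to 0.606.

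*Dusp5*, another nuclear phosphatase of ERK (chromosome 19, 53529145 to 53541809), was listed at 0 in all 12 tumors and all 6 livers. A level that rounds to 0 is listed as 0, so no difference could be measured for it.

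*Spred1* encodes a membrane protein that recruits neurofibromin to switch off RAS, and lies on chromosome 2 from 117121071 to 117182279. It ran from 4.26 to 8.79 scaled TPM in livers (median 6.61) and from 5.25 to 15.9 in tumors (median 11.5). Tumors 2, 8 and 12, all with the tag E20, fell within the liver range, and the other 9 lay above it. Livers averaged 6.64 ± 1.94 (SD, n = 6), tumors 11.4 ± 3.15 (SD, n = 12), and the log2 fold change was 0.69 ± 0.20 (SE, limma, adjusted p = 0.0185), with an exact permutation p of 0.00420. The call was lost without liver 4 (limma, adjusted p = 0.0563) or liver 5 (0.0570) and without scaling between samples (log2 fold change 0.53, adjusted p = 0.452), and held without tumor 2 (log2 fold change 0.77, adjusted p = 0.00196). Its adjusted p ran from 0.00103 to 0.691 over all alternatives.

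The Sprouty genes, whose products hold back RAS activation by receptor tyrosine kinases, were not called in the main comparison. *Spry1* (chromosome 3, 37639947 to 37644599) ran from 1.06 to 2.83 scaled TPM in livers and from 0 to 5.66 in tumors, with 8 of 12 tumors above every liver and tumor 2 at 0. Tumors averaged 3.75 ± 1.82 (SD, n = 12), livers 1.80 ± 0.602 (SD, n = 6), and the log2 fold change of 0.64 ± 0.32 (SE, limma) did not pass the threshold (adjusted p = 0.180). Without tumor 2 it did (log2 fold change 0.83, limma, adjusted p = 0.00565). *Spry1* was the added gene among the 4 then called higher, and it also passed with sample quality weights (log2 fold change 0.79, limma, adjusted p = 0.00215).

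*Spry2* (chromosome 14, 105891947 to 105896819) was at 1 deposited unit in every liver, at 1 unit in 6 tumors, at 0 in tumor 2 and at 2 to 5 units in 5 tumors. On the scaled level, tumor 11 was highest at 6.54, followed by tumor 12 at 3.31 from the same mouse and tumor 8 at 2.86. The log2 fold change of 0.39 ± 0.30 (SE, limma, adjusted p = 0.414) had bounds from rounding of -0.19 and 1.16, so even its direction could not be read from these values.

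*Spry4* (chromosome 18, 38586247 to 38601347) had a negative fold change. It ran from 3.19 to 12.0 scaled TPM in livers (median 7.08) and from 2.61 to 9.20 in tumors (median 4.36), with 3 of 12 tumors below every liver and the other 9 within the liver range. Tumors averaged 4.62 ± 1.71 (SD, n = 12), livers 7.38 ± 3.20 (SD, n = 6), and the log2 fold change was -0.53 ± 0.22 (SE, limma, adjusted p = 0.107). For the gene alone, the exact permutation test gave p = 0.0360, unadjusted. Its adjusted p passed the threshold without liver 5 (limma, log2 fold change -0.71, adjusted p = 0.0267) or tumor 1 (-0.62, adjusted p = 0.0442) and with sample quality weights (-0.83, adjusted p = 0.00257).

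Of the ETS factors, *Etv5* (chromosome 16, 22381313 to 22439570) ran from 1.06 to 5.67 scaled TPM in livers (median 2.19) and from 0 to 6.19 in tumors (median 3.73). Of the 12 tumors, 10 lay within the liver range, tumor 10 above it and tumor 2 below it at 0. The log2 fold change was 0.23 ± 0.33 (SE, limma, adjusted p = 0.693), and rounding alone could move it from -0.09 to 0.73. *Etv4* (chromosome 11, 101769747 to 101785310) was listed at 0 in every liver and at 1 deposited unit in tumors 6, 8, 10 and 11, with the other 8 tumors at 0. An exact permutation test of *Etv4* alone gave p = 0.245.

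*Phlda1*, a pleckstrin-homology-like protein induced by growth factors, lies on chromosome 10 from 111506286 to 111508649 and was the most abundant of the 10 genes in livers. It ran from 18.9 to 61.3 scaled TPM in livers (median 26.2) and from 6.10 to 34.5 in tumors (median 12.3). The highest tumor, tumor 10, lay within the liver range, and the other 11 lay below every liver. Livers averaged 31.2 ± 15.5 (SD, n = 6), tumors 13.8 ± 7.21 (SD, n = 12), and the log2 fold change was -1.13 ± 0.27 (SE, limma, adjusted p = 0.00500), with an exact permutation p of 0.00108. The fold change was -0.92 without liver 4, the highest liver (limma, adjusted p = 0.0205), and -1.11 without tumor 2 (limma, adjusted p = 0.00570). The call was lost with E19 samples alone (log2 fold change -1.47, limma, adjusted p = 0.106). Its adjusted p ran from 0.000273 to 0.106 over all alternatives.

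**Figure D2:**
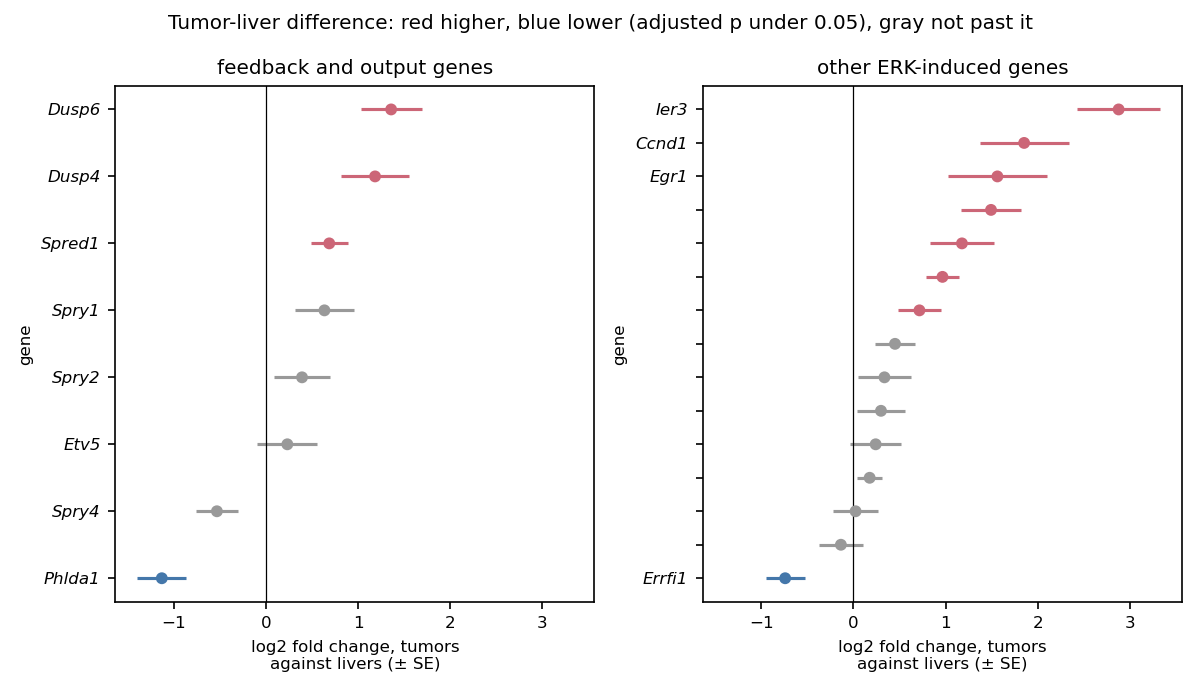
Log2 fold change of tumors against livers with its SE for the 8 tested genes and for 15 other ERK-induced genes (named where the text describes them), in red where higher, in blue where lower and in gray where the adjusted p was not under 0.05. The 8 genes span from -1.13 (*Phlda1*) to 1.36 (*Dusp6*). The 15 other ERK-induced genes hold 7 called higher and 1 lower, against 10.3% and 8.73% of all genes tested.

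The genes around them in the pathway were read from fixed lists. Over all genes tested, 10.3% were called higher and 8.73% lower, and 15.1% and 11.8% without tumor 2. Of 26 components of the cascade from the receptor EGFR to the kinases downstream of ERK, 25 were tested, 6 were called higher and 0 lower (limma), and 9 and 1 without tumor 2. Among those called higher were *Rps6ka3*, which encodes the ERK-activated kinase RSK2 (4.74 ± 1.45 in livers, 11.3 ± 3.91 in tumors, scaled TPM, SD, log2 fold change 1.07, limma, adjusted p = 0.00118), and *Rras2* (log2 fold change 0.73, limma, adjusted p = 0.0167, and 0.0566 without liver 6). The *Rps6ka3* call was lost in 2 of 15 alternatives (limma, adjusted p up to 0.159), and that of *Rras2* in 4 of 15 (up to 0.378).

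Among 13 relatives of the 10 genes, 7 were tested and 2 were called higher, both of the *Phlda* family, against 10.3% of all genes tested. *Phlda3* was at 1.03 ± 0.216 scaled TPM (SD, n = 6) in livers and 7.24 ± 5.90 (SD, n = 12) in tumors (log2 fold change 1.66, limma, adjusted p = 0.0106). *Phlda2*, at 0 in 5 of 6 livers, was at 1.73 ± 0.916 (SD, n = 12) in tumors (limma, adjusted p = 0.00174). The *Phlda3* call was lost in 4 of 15 alternatives (limma, adjusted p up to 0.311), and that of *Phlda2* in 1 of 14 (0.282). Without tumor 2, 3 relatives were called higher, against 15.1% of all genes, with the phosphatase gene *Dusp7* added (log2 fold change 0.51, limma, adjusted p = 0.00525). Thus *Phlda1* was lower and its relatives *Phlda2* and *Phlda3* were higher in the same tumors.

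Of 24 other genes that ERK signaling is known to induce, 15 were tested, 7 were called higher and 1 lower, and the counts were the same without tumor 2. Of all genes tested, 10.3% were called higher and 8.73% lower (15.1% and 11.8% without tumor 2). *Ier3*, an immediate early gene, had the largest rise, from 0.814 ± 0.795 scaled TPM (SD, n = 6) to 14.6 ± 9.72 (SD, n = 12), which is 2.88 on the log2 scale (limma, adjusted p = 0.000123). *Ccnd1*, the cyclin that drives entry into the cell cycle, differed by 1.85 on the log2 scale (adjusted p = 0.00969 by limma), although liver 1 was at 78.9 while the other livers were at 1.89 to 7.99. The *Ccnd1* call was lost in 3 of 15 alternatives (limma, adjusted p up to 0.410). The transcription factor gene *Egr1* differed by 1.56 (adjusted p = 0.0471 by limma), a call that was lost in 8 of 15 alternatives (adjusted p up to 0.268) and in 11 of 18 fits that left out 1 sample. The highest adjusted p of *Egr1* among these 18 was 0.146, without liver 5, and all 18 had it higher in tumors. *Errfi1*, an inhibitor of EGFR, was the gene called lower, by -0.74 on the log2 scale (adjusted p = 0.0169 by limma). Its call was lost in 6 of 15 alternatives (adjusted p up to 0.370), and without liver 2 (0.0557) or liver 3 (0.0517).

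Marker genes of proliferation and of cell types were compared between the groups in the same way. Of all genes tested, 10.3% were called higher and 8.73% lower (15.1% and 11.8% without tumor 2). The summed level of the proliferation markers *Mki67*, *Top2a*, *Ccnb1* and *Cdk1* was 0 to 1.89 scaled TPM in livers and 4.995 to 23.1 in tumors, and 3 of the 3 tested were called higher. Of 7 stellate and fibroblast markers 3 were called higher and 1 lower (summed level 43.0 to 70.3 in livers, 34.2 to 143.7 in tumors), of 6 endothelial markers 2 were called higher (33.7 to 63.3 in livers, 25.7 to 74.6 in tumors), and of 6 macrophage and Kupffer markers 1 was called lower (64.1 to 208.7 in livers, 31.4 to 147.5 in tumors). Of 5 hepatocyte markers 1 was called higher and 1 lower, and of 4 biliary markers 1 was tested and 0 called (3.20 to 10.4 in livers, 3.54 to 15.7 in tumors). Without tumor 2, 4 stellate and fibroblast markers were called higher and 1 lower, and 2 hepatocyte markers higher and 1 lower. The other marker lists with tested genes kept their counts. T cell, B cell and mast cell markers did not pass the filter, which asks for a level of at least 1 in 6 or more samples. Their summed levels were at most 2.83 in livers. The highest tumor was tumor 10 for each, at 7.96, 0.885 and 43.4. The 1 neutrophil marker tested was not called. The part of these cell types in the results was not tested.

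**Figure D3:**
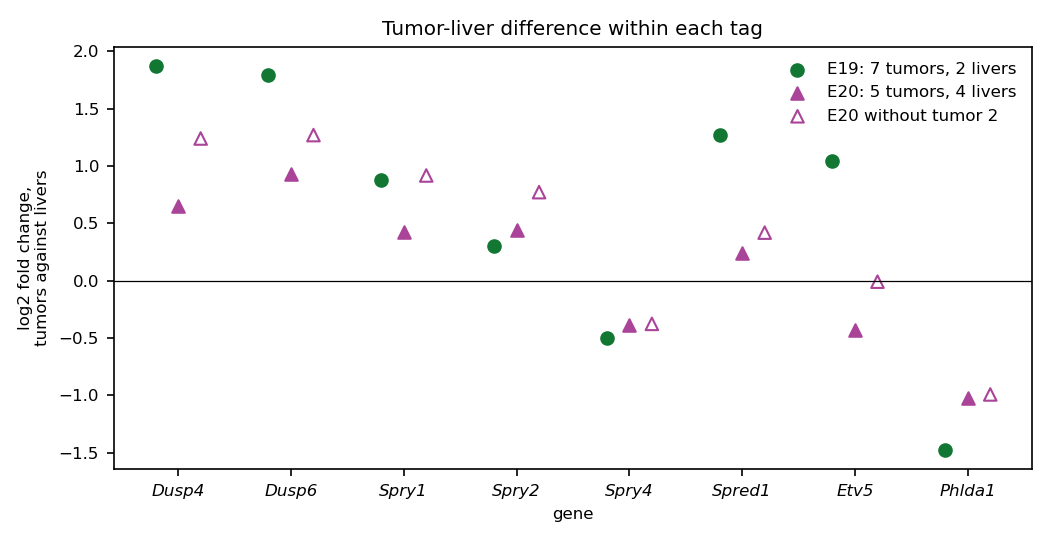
Log2 fold change of tumors against livers for the 8 tested genes within E19 (green circles, 7 tumors and 2 livers), within E20 (purple triangles, 5 tumors and 4 livers) and within E20 without tumor 2 (open triangles). *Spred1* was at 1.27, 0.24 and 0.42, and *Etv5* at 1.05, -0.43 and -0.01 in these 3 sets.

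The tumor-liver difference was also read within each tag. Within E19 (7 tumors, 2 livers) *Dusp4*, *Dusp6*, *Spred1* and *Etv5* lay above both livers in 7 of 7 tumors, as did 13.4% of all genes tested, and limma called these 4 genes higher and 0 lower, against 7.06% and 5.48% of all genes. *Etv5* only just passed (log2 fold change 1.05, limma, adjusted p = 0.04999), with the 2 livers at 2 and 1 deposited units. Within E20 (5 tumors, 4 livers) limma called 0 of the 8 genes higher and *Phlda1* lower, against 3.58% and 1.19% of all genes. The E20 tumors include tumor 2, and without it the E20 fold changes moved toward those of E19 for *Dusp4*, from 0.65 to 1.24 (limma, adjusted p = 0.00607), for *Dusp6*, from 0.93 to 1.27 (limma, adjusted p = 0.0634), and for *Spry1*, from 0.43 to 0.92 (limma, adjusted p = 0.0339), against 0.88 in E19. *Dusp4* and *Spry1* were then called higher and *Phlda1* lower, against 6.71% and 2.19% of all genes.

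*Spred1* and *Etv5* had the lowest unadjusted p for a difference between the tags. In E19 *Spred1* was at 4.26 and 4.95 scaled TPM in the livers and at 10.7 to 15.9 in the tumors. In E20 it ran from 5.66 to 8.79 in the livers and from 5.25 to 14.2 in the tumors, with 2 of 5 tumors above every liver. The test of the difference between the tags gave an unadjusted p of 0.00977 for *Spred1* and 0.0284 for *Etv5* (limma interaction of group and tag), and both had an adjusted p of 0.951. Over all genes the interaction called 0 of 11452 (334 at an unadjusted p under 0.05), and without tumor 2 also 0 (435), so a difference between the tags was not shown for any of the 8 genes.

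**Figure D4:**
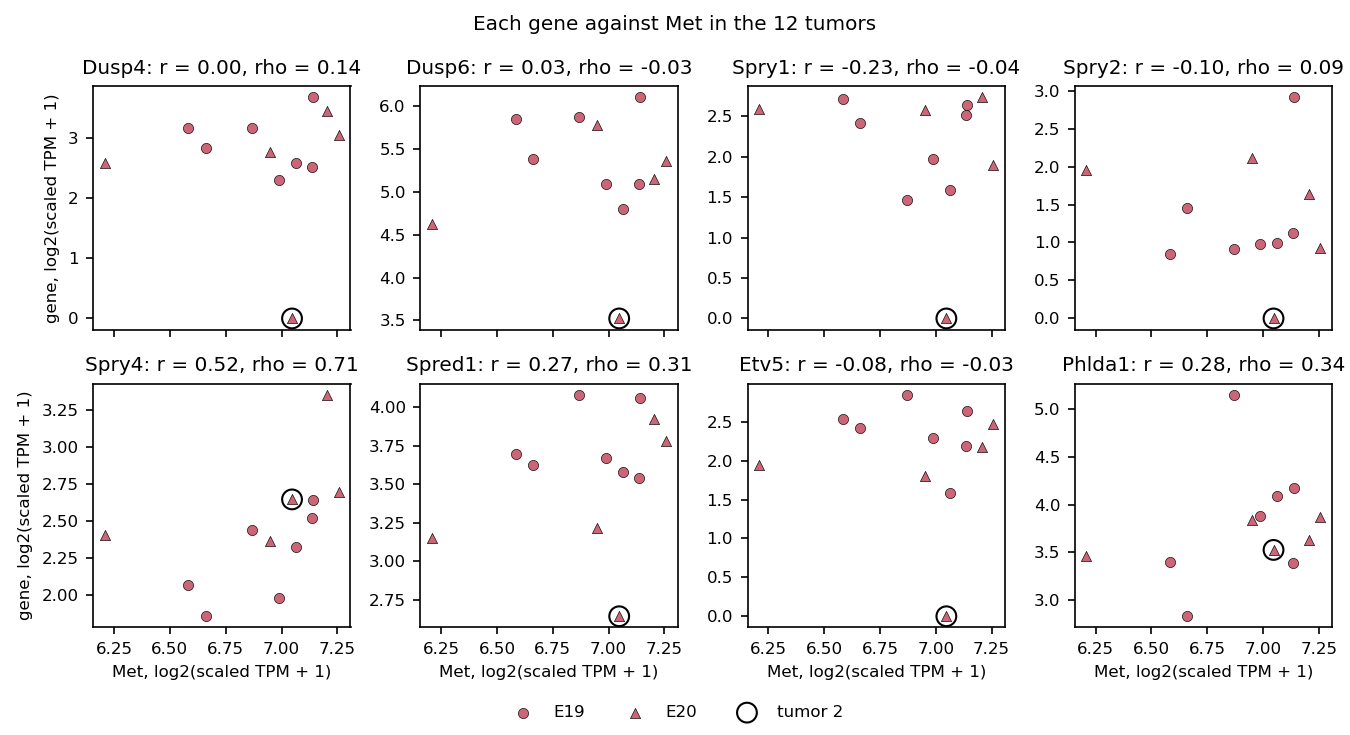
Each of the 8 tested genes against *Met* in the 12 tumors, both as log2(scaled TPM + 1), with circles for E19, triangles for E20 and a ring around tumor 2. *Spry4* had the highest r (0.52, with rho = 0.71), and the other 7 genes had r between -0.23 and 0.28.

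The second comparison set the genes against *Met*, the receptor gene that these mice also carry as a transgene, across the 12 tumors. The table does not part reads of the transgene from those of the mouse gene. *Met* was at 15.97 to 38.4 scaled TPM in livers and at 73.0 to 151.9 in tumors, with every tumor above every liver (log2 fold change 2.25 ± 0.19, SE, limma, adjusted p = 3.25e-08), as was the case for 2.31% of all genes. The ligand gene *Hgf* was lower in tumors, at 2.45 ± 1.44 (SD, n = 12) against 5.09 ± 1.37 (SD, n = 6) scaled TPM in livers (log2 fold change -0.89, limma, adjusted p = 0.0132). The *Hgf* call was lost in 3 of 14 alternatives (limma, adjusted p up to 0.252). In the whole list of 8 genes of the *Met* system, 7 were tested, 3 were called higher and 1 lower, against 10.3% and 8.73% of all genes. Without tumor 2 the counts were also 3 and 1, against 15.1% and 11.8% of all genes. Among those higher were *Hgfac*, a protease that activates HGF (log2 fold change 0.98, limma, adjusted p = 0.00301), and *St14*, listed at 0 in all 6 livers and above 0 in 10 of 12 tumors. The *Hgfac* call was lost in 2 of 15 alternatives (limma, adjusted p up to 0.267), and that of *St14* in 4 of 14 (up to 0.174).

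Among tumors *Met* itself spanned little more than 1 unit on the log2 scale, and none of the genes followed it past the threshold. Over 11451 genes, 0 had an adjusted p under 0.05 for Pearson's r or for Spearman's rho (100000 permutations), with 69 positive and 94 negative at an unadjusted p under 0.05 for r, and 179 and 275 for rho. Without tumor 2 it was also 0, with 146 positive and 182 negative unadjusted for r, and 248 and 331 for rho. The median r was 0.01 over the 8 genes and -0.04 over all genes. The highest was *Spry4*, with r = 0.52 (permutation p = 0.0892, adjusted p = 0.999985) and rho = 0.71 (permutation p = 0.0125, adjusted p = 0.981). Without tumors 8 and 5, whose *Met* was farthest from the median, *Spry4* had r = 0.75, and within the 7 tumors of E19 r = 0.72 (exact permutation p = 0.0776). E20 holds 5 tumors, too few for a correlation of its own.

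For the genes called between tumors and livers, no correlation with *Met* passed the threshold. *Dusp4* had r = -0.0039, *Dusp6* r = 0.028, *Spred1* r = 0.27 and *Phlda1* r = 0.28 (permutation p = 0.990, 0.926, 0.394 and 0.351, all with an adjusted p of 0.999985), and rho = 0.14, -0.035, 0.31 and 0.34 (permutation p = 0.666, 0.923, 0.320 and 0.288, adjusted p = 0.981 to 0.997). Without tumors 8 and 5, r was 0.086, -0.13, 0.098 and 0.13. The remaining genes had r = -0.23 (*Spry1*), -0.098 (*Spry2*) and -0.084 (*Etv5*), with permutation p of 0.445, 0.752 and 0.786. Without tumor 2, the r of *Spred1* was 0.52 (permutation p = 0.103) and that of *Dusp4* 0.26 (permutation p = 0.452). A p that misses the threshold over 12 tumors does not show that the genes are unrelated to *Met*.

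**Figure D5:**
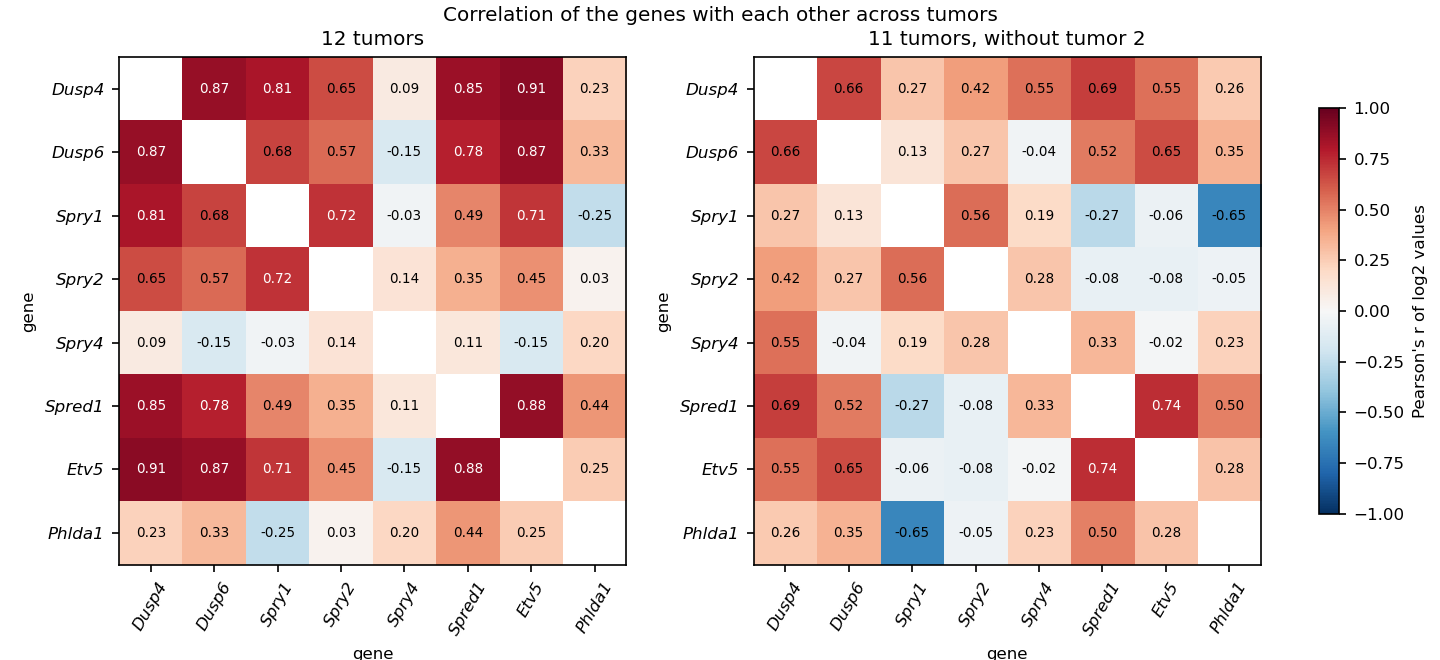
Pearson's r between the 8 tested genes on log2 values, over 12 tumors (left) and over the 11 tumors other than tumor 2 (right), from -1 in blue to 1 in red. Of the 28 pairs, 12 had r of at least 0.5 with tumor 2 and 9 without it, and the highest left among the 11 tumors is *Spred1* with *Etv5* at 0.74.

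The genes were also set against each other across tumors, where much rested on tumor 2, in which 4 of the 8 tested genes were at 0. Over 12 tumors the median r of the 28 pairs was 0.45, and 24 pairs were positive. Without tumor 2 the median was 0.27, with 20 pairs positive. No pair had an adjusted p under 0.05 in both directions of the test, that is with each of its genes set against all genes tested (100000 permutations), with tumor 2 or without it.

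The 4 highest pairs without tumor 2 were among *Dusp4*, *Dusp6*, *Spred1* and *Etv5*, genes singled out here after their values were seen. *Spred1* and *Etv5* had r = 0.88 over 12 tumors and 0.74 over 11, *Dusp4* and *Spred1* 0.85 and 0.69, *Dusp4* and *Dusp6* 0.87 and 0.66, *Dusp6* and *Etv5* 0.87 and 0.65, *Dusp4* and *Etv5* 0.91 and 0.55, and *Dusp6* and *Spred1* 0.78 and 0.52. All 6 pairs of these 4 genes were thus at 0.52 or higher in both sets. Many other genes reached such values. With all 11451 genes ranked by r to each of the 4 without tumor 2, the others of the 4 took ranks from 94 to 1129. Pairs outside these 4 genes also had r of at least 0.5 over 11 tumors. These were *Spry1* and *Spry2* (0.72 over 12 tumors, 0.56 over 11), *Dusp4* and *Spry4* (0.087 and 0.55) and *Spred1* and *Phlda1* (0.44 and 0.50). To the 4 genes, *Spry1* had lower values once tumor 2 was left out, with r = 0.27 to *Dusp4*, 0.13 to *Dusp6*, -0.27 to *Spred1* and -0.06 to *Etv5*. *Spry1* and *Phlda1* gave the lowest value, r = -0.25 over 12 tumors and -0.65 over 11 (permutation p = 0.0223, adjusted p = 0.977).

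Genes whose pattern over the 12 tumors was most like that of each gene were taken among those with a mean log2 level of at least 2. They are the highest of 8299 candidates (8300 for *Spry2*), so their r values are high by selection. For *Dusp6* they were *Rhoc*, *Paip2* and *Rab20* (r = 0.95, 0.94 and 0.92, permutation adjusted p = 0.0891 to 0.0961). The first of these, a small GTPase, also led without tumor 2 (r = 0.87, permutation adjusted p = 0.301). For *Dusp4* they were *Usp6nl*, *Atxn10* and *Fam20b* (0.96, 0.96 and 0.95, permutation adjusted p = 0.0846 to 0.110). Without tumor 2 those most like *Dusp4* were *Ptp4a3*, *Col4a1* and *Col15a1* (0.92, 0.91 and 0.90, permutation adjusted p = 0.229 each), the latter pair of which encode collagens of basement membranes. For *Spred1* they were *Arpc1b*, *Cav1* and *Akr1c18* (0.95, 0.94 and 0.93, permutation adjusted p = 0.0229 to 0.0301). *Arpc1b*, a subunit of the actin-branching complex, stayed among the highest without tumor 2 at 0.91 (permutation adjusted p = 0.204).

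*Etv5* was closest to *Btg3*, *Rpl29* and *Ppp1r11* (r = 0.98 each), and 943 genes correlated positively and 424 negatively with it at an adjusted p under 0.05 (100000 permutations), which was 8.24% of genes on the positive side. Without tumor 2 these counts were 0 and 0. The genes most like *Etv5* were then *Pak2*, *Srf* and *Tmsb10* (r = 0.95, 0.94 and 0.93, permutation adjusted p = 0.0573 each). *Srf* encodes the factor that binds CArG boxes, none of which stood in the *Etv5* windows searched. For the Sprouty genes, the closest named were *Gdap2* and *Zfp322a* to *Spry1* (r = 0.93 each), *Eml4*, *Tsc22d2* and *Rhoq* to *Spry2* (0.83 each) and *Garre1*, *Gja1* and *Camsap1* to *Spry4* (0.88, 0.84 and 0.84). Those closest to *Phlda1* were *Igsf11*, *Pkm* and *Glg1* (0.83, 0.81 and 0.81, permutation adjusted p = 0.999). Apart from those of *Spred1* and *Etv5* over 12 tumors, none of these neighbors passed the threshold.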

How the data were processed

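Poly-A RNA of 6 livers and 12 tumors of *Alb-R26Met* mice was sequenced, 18 samples from 17 mice, and no comparison left out a sample unless stated. Per the study's methods, the authors sequenced paired ends, checked reads with FastQC, aligned to GRCm38 (mm10), quantified genes by Salmon and expressed them as TPM. The deposited whole numbers, a score named raw counts in the paper, were read as rounded TPM, since 882 of 900 TPM values compared for 50 genes equal them after rounding. Totals were 835144 to 884597 per liver and 845356 to 907513 per tumor. The reads behind a value are not kept by TPM, so no counting error is given. Of 28442 genes, 12874 were at 0 in every sample, and 8 lines with an extra separator were read from their last fields.

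Samples were scaled by unweighted TMM factors, trimming 30% by M and 5% by A. The 11452 genes that reached 1 after scaling in 6 or more samples were fitted as log2(value + 1) with limma 3.58.1 and its variance trend (R 4.3.3), so fold changes of low genes are understated. Adjusted p-values are Benjamini-Hochberg over all genes tested, with a threshold of 0.05. Exact permutation tests are two-sided over 18564 splits, and correlations used 100000 permutations over the 12 tumors, or all orders within E19. The code was tested on simulated data. Figures were drawn with matplotlib 3.10.9 in Python 3.11.15, with pandas 2.3.3 and numpy 2.4.6. Gene positions and sequences are those of RefSeq on GRCm38.p6.

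All 10 genes are named. The genes and lists were chosen with earlier results of these data known. From each pathway list, the 3 genes with the largest log2 fold change in size in each direction are named among those with an adjusted p under 0.05, and *Met*, *Hgf* and *Siglece* because results turn on them. *Srf* and *Dusp7* were added after their values were seen, as were *Ptp4a3*, *Col4a1*, *Col15a1*, *Pak2* and *Tmsb10*, from the ranking without tumor 2. For each tested gene, the 3 genes with the highest r over tumors were named, except predicted genes (symbols in Gm or Rik). Some genes that these rules name are not reported here. Samples were grouped by their labels, and ages came from the study's sample list, in which the mouse number of 2 tumors differs from the labels. The mice are separate animals except for tumors 11 and 12.

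Livers and tumors share replicate numbers 1 to 6. Deviations of same-numbered samples from the means of their groups correlated at 0.18 on average (6 pairs, 3 of them over 0.1). Those of differently numbered samples correlated at -0.036 (30 pairs, 9 of them over 0.1). By their labels the livers and tumors came from different mice, so the numbers were not taken to pair samples. Alternatives covered the scaling, the filter, the pseudocount, tag and age as terms, a block by replicate number, tumors 11 and 12 averaged, each tag alone, sample quality weights and each sample left out. The bounds from rounding were chosen after seeing the data. So were the values without tumor 2 for lists, pairs of genes, the genes most like each gene and the tags.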

Additional observations from a re-analysis of the deposited data

Results flagged for a closer look

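Among 31 values tested over the 6 livers, 6 had a sample whose gap to the nearest other liver exceeded Dixon's limit for 6 samples, as a share of the whole range. For normally distributed values chance passes about 1 in 20 such groups (1.55 of 31). That share does not hold for values near 0, where 1 deposited unit in 1 liver alone gives a gap of 1. *Phlda1* had a gap of 0.688 of the range, with liver 4 at 61.3 scaled TPM and the other livers at 18.9 to 32.1. *Ccnd1* had a gap of 0.921, with liver 1 at 78.9 and the others at 1.89 to 7.99. *Phlda2* had a gap of 1, with liver 1 at 0.717, which is 1 deposited unit, and the others at 0. Liver 1 also stood out in the summed neutrophil markers (gap 0.839, 5.02 against 0.943 to 1.599). Liver 5 stood out in the summed macrophage and Kupffer markers (gap 0.665, 208.7 against 64.1 to 112.6). Liver 2 stood out in the B cell markers (gap 1, 0.943, which is 1 deposited unit, against 0 in the others). The group of 12 tumors was too large for this test. No difference of the tumor-liver effect between the tags passed the threshold for any of the 8 genes.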

How the results depend on the processing

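Over the 11452 genes tested, 1175 were called higher and 1000 lower, 2175 in all. Without scaling between samples 577 were higher and 544 lower (1121 in all), with 1 of the 8 genes higher. E19 samples alone gave 1436 calls, 627 of them lower, with 0 of the 8 genes lower. E20 samples alone gave 546 calls (410 higher, 136 lower), with 0 of the 8 genes higher. Sample quality weights gave 4579 calls (2338 higher, 2241 lower), with 2 of the 8 genes lower. Leaving out 1 sample at a time gave 1642 to 3074 calls, 962 to 1726 higher and 680 to 1348 lower, with 1 to 4 of the 8 genes higher and 1 to 2 lower. Without liver 4 or liver 5 the 1 gene higher was *Dusp6*, and without liver 5 or tumor 1 the 2 lower were *Phlda1* and *Spry4*. The cause was not tested.

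A replicate block by number, over livers 1 to 6 and tumors 1 to 6, left limma with 1501 calls (780 higher, 721 lower) and with 0 of the 8 genes higher and 1 lower. The same 12 samples without the block gave 1368 (754 higher, 614 lower), also with 0 higher. The same-numbered sample was the best correlated of 6 candidates for 3 of the 6 livers and 2 of the 6 tumors.

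Fold changes of the 8 genes changed sign in *Etv5* with E20 samples alone (-0.43) and in *Spry2* over livers and tumors 1 to 6 (-0.030, with and without the block). Rounding alone could bring *Spry2* to -0.19 and *Etv5* to -0.093. All correlations of the 8 genes with *Met* had an adjusted p over 0.05 in every setting run, and those near 0 changed sign in several. Without scaling, where the median r with *Met* over all genes was 0.78, r was 0.94 for *Spred1*, 0.89 for *Dusp4*, 0.88 for *Dusp6*, 0.83 for *Spry4*, 0.82 for *Etv5*, 0.78 for *Phlda1*, 0.75 for *Spry1* and 0.50 for *Spry2* (adjusted p = 0.0529 to 0.111). After scaling to the total without *Siglece* it was 0.49 for *Dusp4*, 0.22 for *Spry1*, 0.26 for *Spry2* and 0.37 for *Etv5*. For *Dusp4*, r was 0.061 with a pseudocount of 5, 0.0027 with the tag and 0.12 with age as a term, 0.14 as rho and 0.086 without the 2 tumors farthest in *Met*. For *Dusp6* it was -0.0064 with tumors 11 and 12 averaged, -0.29 in E19, -0.035 as rho and -0.13 without the 2 tumors. For *Spry2* it was 0.19 with age as a term, 0.39 in E19, 0.091 as rho and 0.044 without the 2 tumors, where *Spry1* was at 0.051. Leaving out 1 tumor gave -0.086 to 0.26 for *Dusp4*, -0.27 to 0.19 for *Dusp6*, -0.34 to 0.15 for *Spry2* and -0.18 to 0.055 for *Etv5*.

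Of 892 fold changes and correlations of single genes recomputed, 775 kept direction and call. The low genes are limited by rounding to whole TPM.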
